A study of Sus scrofa with 5 samples.

Results

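Predicted miRNA loci that were listed in exactly 1 of 3 cultured pig libraries were analysed. The members were selected on the deposited read counts: a locus had a count in ES-like cells, in embryoid bodies (PEBs) or in fetal fibroblasts (PFFs), and no count in the other cultured libraries or in either blastocyst library. Of 783 predicted loci with a count, 285 (36.4%) met the rule, of which 159 belonged to PFFs, 69 to PEBs and 57 to ES-like cells. A dash in the table marks the lack of a prediction by miRDeep2, which is not the same as 0 reads. The values of each member therefore come from a single library, and nothing is known here of its reads in the other 4.

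The study compared small RNAs of pluripotent and somatic pig cells. ES-like cells, a line with features of embryonic stem cells, were derived from blastocysts produced in vitro and grown on mitotically inactivated mouse embryonic fibroblasts with stem cell factor and basic fibroblast growth factor. PEBs were clumps of these ES-like cells kept in hanging drops without cytokines. PFFs were grown from minced fetal bodies without heads, limbs and viscera. The blastocysts (BLs) were 2 pools of day 7 embryos that develop from oocytes activated without sperm. Each cultured cell type had 1 library, so no difference between the 3 groups of loci has a replicate check, and all values below are descriptions without a test.

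A miRNA is cut from a hairpin in a longer transcript, first by Drosha and then by Dicer, and many miRNA genes lie side by side in clusters that share a transcript. miRDeep2 searches for hairpins on which reads stack as the products of Dicer would, namely a mature strand, the opposite (star) strand and the loop. It gives each hairpin a score, a log-odds value that is higher where the reads and the fold look more like those of a miRNA precursor. The loci analysed here come from the deposited table of predictions that miRDeep2 did not class as reported miRNAs, and positions are given on Sscrofa10.2. Neither the sequence and strand of the hairpins nor the genes at these positions were analysed here.

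Depth differed between the libraries. Mature reads of reported miRNAs numbered 27071931 in PFFs, 15849954 in PEBs and 6372500 in ES-like cells, against 113743 and 2782150 in the BL libraries. These totals are sums of the deposited columns under their own names. The sequencing summary of the study gives the totals of ES-like cells and PFFs the other way round, so all values scaled by depth below rest on the column names. The table of predicted loci uses the same names, and its locus with the most reads in ES-like cells, on chromosome 8 from 115200079 to 115200140, had 3980216 reads there, 1751630 in PEBs and 24 in PFFs. As a check of the labels, 5 miRNAs known from fibroblasts and mesenchyme summed to 680039 reads per 1000000 mature reads (RPM) in PFFs, 288182 RPM in PEBs and 195233 RPM in ES-like cells. Most of the sum in PFFs was ssc-miR-21, at 522808 RPM, and 2 of the 5 were higher in PEBs than in PFFs, namely ssc-miR-199a-3p at 80420 against 52517 RPM and ssc-miR-214 at 774 against 516 RPM. The 4 miRNAs known from pluripotent cells and embryos summed to 51811 RPM in ES-like cells, 13010 RPM in PEBs and 335 RPM in PFFs. Within that list ssc-miR-371-5p had only 197 reads in ES-like cells and 8 in PEBs, or 30.9 and 0.505 RPM, against 296148 RPM in BL_2. ssc-miR-122, known from liver, stood at 101004 RPM in ES-like cells, 54096 RPM in PEBs and 4.14 RPM in PFFs. The 4 markers of blood cells summed to between 0 and 84.5 RPM in the 5 libraries, and the 3 of skeletal muscle to between 188 RPM in ES-like cells and 2442 RPM in BL_2, with 1017 RPM in PFFs.

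Of the 3 cultured libraries, PFFs held the most loci that no other library had. The 159 loci were 50.6% of the 314 loci predicted in PFFs, while the 57 of ES-like cells were 23.7% of 241 and the 69 of PEBs were 27.5% of 251. Per 1000000 mature reads, the order was different, with 8.94 loci in ES-like cells, 5.87 in PFFs and 4.35 in PEBs. This order depended on the denominator, since per 1000000 mature and predicted-locus reads PFFs led with 5.86 loci, against 3.84 in ES-like cells and 3.47 in PEBs. With the mature read totals of ES-like cells and PFFs exchanged, the values were 25 loci in PFFs, 4.35 in PEBs and 2.11 in ES-like cells. The line and its embryoid bodies shared loci that would otherwise have counted for 1 of them: 36 loci were predicted in ES-like cells and PEBs alone. Without the PEB library the rule gave 93 loci for ES-like cells, and without the library of ES-like cells it gave 105 for PEBs. Loci in ES-like cells and PFFs alone numbered 24, and those in PEBs and PFFs alone 21. These loci lay just outside the rule, and those of ES-like cells and PEBs had medians of 24 and 27.5 reads in the respective libraries, those of ES-like cells and PFFs 13.5 and 21, and those of PEBs and PFFs 12 and 13.

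Reads on the members were few in each library. The median locus had 11 reads in ES-like cells (quartiles 5 and 29), 13 in PEBs (9 and 53) and 11 in PFFs (8 and 29). Loci of the same libraries that were also predicted elsewhere had medians of 28.5, 31 and 26 reads. With the columns as named, the medians of the members in RPM were 1.73, 0.82 and 0.406. The small lead of PEBs over ES-like cells in raw reads thus turned around. With reads on predicted loci in the denominator as well, the median of PEBs was 0.881 times that of ES-like cells. The lead of PEBs remained when the mature totals of ES-like cells and PFFs were exchanged. Scaled to PEB depth, the ES-like median was then 6.44 reads, below the PEB median of 13, and the PFF median was 27.4. In all, the members took 17384 reads in PFFs, 9308 in PEBs and 2774 in ES-like cells, which as a ratio to the mature reads, a total that does not hold them, came to 0.0642%, 0.0587% and 0.0435%. These ratios lie close together only with the columns as named. With the totals exchanged, the reads of PFFs would stand against 6372500 and those of ES-like cells against 27071931, which sets the ratios far apart with PFFs higher. Of the reads on all predicted loci, the members held 0.0328% in ES-like cells (95% exact Clopper-Pearson interval 0.0316 to 0.034%), 0.23% in PEBs (0.226 to 0.235%) and 27% in PFFs (26.6 to 27.3%). The denominators differed, as the locus with the most reads held 11678 in PFFs, against 1751630 in PEBs and 3980216 in ES-like cells. In both of the latter libraries 2 loci were listed with that number, and with it counted once the shares were 0.0619% in ES-like cells and 0.406% in PEBs. The intervals cover counting error only, since PCR copies, and any reads counted at more than 1 locus, would not be independent molecules.

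**Figure D1:**
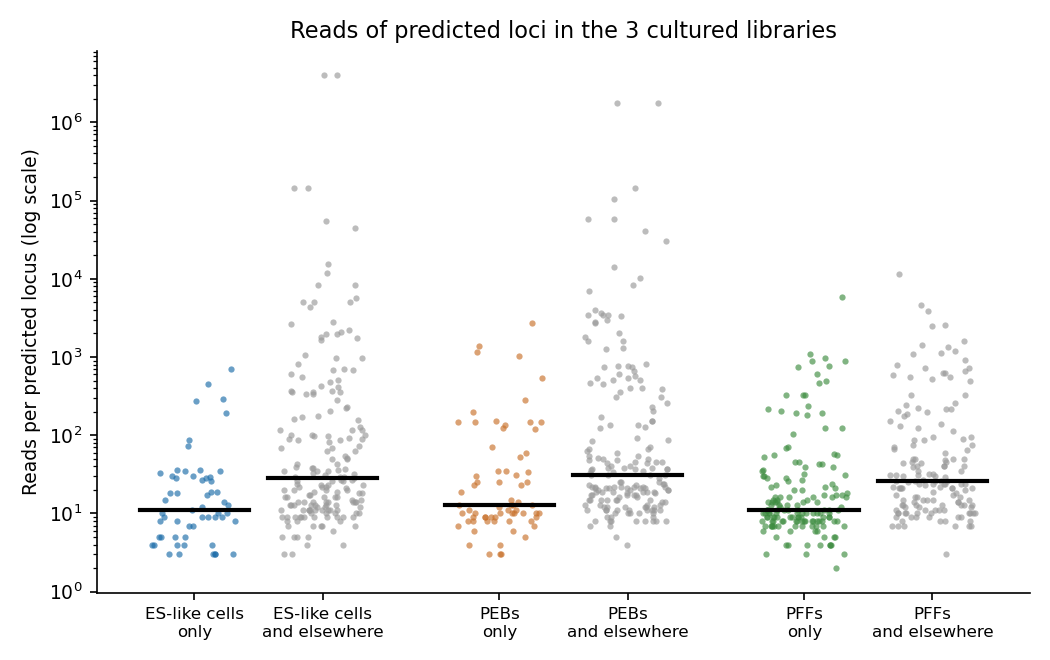
Reads per predicted locus on a log scale in each cultured library, with loci of that library only in colour and loci also predicted in another library in grey. Each point is 1 locus and black bars mark medians, which lie at 11, 13 and 11 reads for the coloured loci and at 28.5, 31 and 26 for the grey ones.

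Since the libraries differed in depth, the reads of each locus were scaled to the depth of the other libraries. At the same RPM, each of the 57 loci of ES-like cells would have had at least 10 reads in PFFs, and 46 of them at least 10 in PEBs. For PEBs, 63 of the 69 loci would have reached 10 reads in PFFs but 26 in ES-like cells. For PFFs, 52 of the 159 would have reached 10 reads in PEBs and 32 in ES-like cells, where the median locus would have had 2.59 reads, or 6.01 with reads on predicted loci in the depth. The lowest count of any prediction was 3 reads in ES-like cells and PEBs and 2 in PFFs. With mature reads as the depth, 144 of the 159 PFF loci would have had at least 3 reads in PEBs and 74 in ES-like cells. Of the 69 PEB loci, 59 would have had at least 3 in ES-like cells. With reads on predicted loci added to the depth, 42 loci of ES-like cells would have reached 10 reads in PFFs and 51 of PFFs would have done so in ES-like cells. On both scales most loci of ES-like cells stood at 10 reads or more at the depth of PFFs, while most PFF loci fell below 10 at the depth of ES-like cells. With the totals of these 2 libraries exchanged this turned around, at 7 loci of ES-like cells and 158 of PFFs. In the BL libraries, at most 22 loci of a group would have reached 10 reads in BL_2 and 1 in BL_1.

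**Figure D2:**
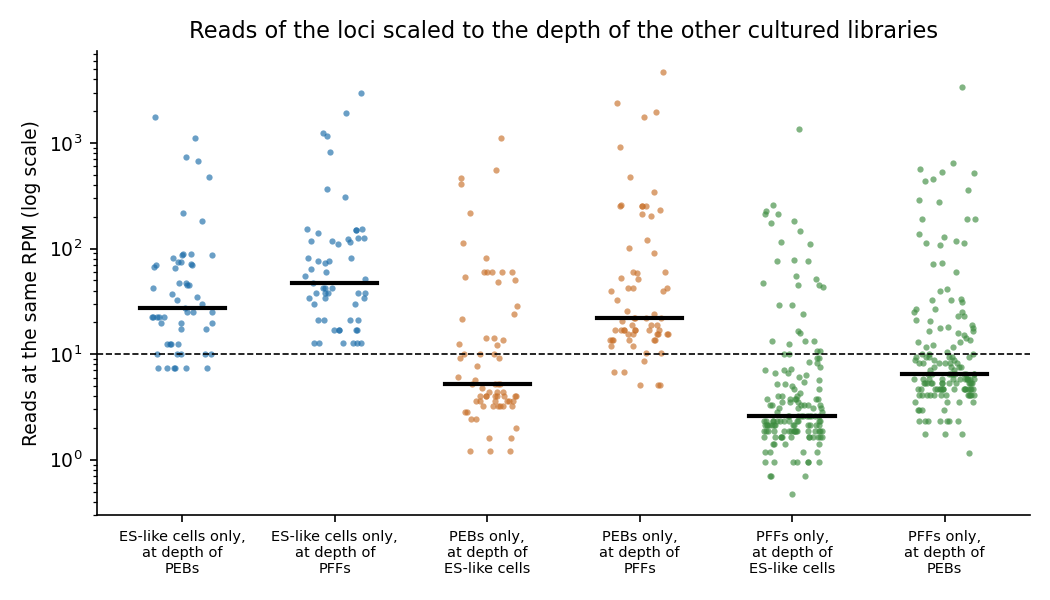
Reads that each locus would have at the same RPM in the other cultured libraries, on a log scale, with black bars for medians and a dashed line at 10 reads. With mature reads as the depth, all 57 loci of ES-like cells lie above the line at the depth of PFFs, and 32 of the 159 loci of PFFs reach it at the depth of ES-like cells.

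Among the loci of ES-like cells, 5 had at least 100 reads (8.77%, against 26.6% of all loci predicted in that library). The locus on chromosome 4 from 58146507 to 58146571 led with 703 reads, or 110 RPM, but its score was 1.7. It was followed by the locus on chromosome 3 from 59308563 to 59308626, which had 451 reads and the highest score of the group, 225.8. A hairpin of only 40 bases on chromosome 7 from 22716771 to 22716810 had 294 reads and a score of 136.7. Chromosome 13 had a hairpin of 44 bases from 28513354 to 28513397 with 273 reads and a score of 1.3. On the X chromosome, the locus from 53138318 to 53138381 had 193 reads and a score of 99.9. These 5 loci held 69% of the reads of the group. The leading locus would have had 1749 reads in PEBs and 2987 in PFFs at the same RPM, or 943 and 1286 with reads on predicted loci in the depth. With the mature totals of ES-like cells and PFFs exchanged, it would have had 412 and 165. Neither library listed it.

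PEBs had more loci with many raw reads than ES-like cells: 15 of 69 had at least 100 (21.7%, against 28.7% of all loci predicted there). With the columns as named, 6 of the 69 would have had at least 100 reads in ES-like cells at the same RPM. On this scale the lead over the 5 of 57 loci of ES-like cells was almost gone. With the mature totals of ES-like cells and PFFs exchanged, 17 of the 69 would have had at least 100. The count with reads on predicted loci in the depth was not made, and the cause of the lead was not tested. Chromosome 16 held the PEB locus with the most reads, from 74538533 to 74538594, at 2755 reads, or 174 RPM, and a score of 0.8. Next came a hairpin of 45 bases on chromosome 14 from 32287065 to 32287109 with 1383 reads and a score of 2.3. A locus with 1024 reads and a score of 0.5 lay on chromosome 8 from 1419698 to 1419776, and one with 537 reads and a score of 2.2 on scaffold GL892933.2 from 91881 to 91931. All 4 scores were below the upper quartile of the group, 2.9, despite the many reads.

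The X chromosome held the PEB locus with the highest score. From 48639769 to 48639832 it had 1159 reads, or 73.1 RPM, and a score of 592.5. It lay among loci that the other cultured libraries had as well. A locus 993 bases away, from 48640826 to 48640886, was read 2464 times in PFFs, 1786 times in PEBs and 1824 times in ES-like cells, besides 12 times in BL_1 and 266 in BL_2. From 48643219 to 48643285, PFFs had 1429 reads, PEBs 2992 and ES-like cells 969. On the other side, from 48632394 to 48632455, PFFs had 177 reads, PEBs 169 and ES-like cells 159. At the RPM of PEBs, the PEB locus would have had 466 reads in ES-like cells and 1980 in PFFs, or 864 and 1581 with reads on predicted loci in the depth. With the mature totals of ES-like cells and PFFs exchanged, the PEB locus would have had 1980 and 466. The score of its nearest neighbour also differed between libraries, at 1.6 in ES-like cells and PEBs and 1257 in PFFs, although the reads were of like number.

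In PFFs, 22 of the 159 loci had at least 100 reads (13.8%, against 19.4% of all loci predicted there). A locus on chromosome 1, from 230038340 to 230038405, took 5793 reads, or 214 RPM, which was 33.3% of the reads of the group, and its score was 1.3. Among the others with the most reads, scaffold GL895387.1 had a locus from 30653 to 30712 with 968 reads and a score of 1.5. A hairpin of 47 bases on chromosome 11 from 64051862 to 64051908 had 896 reads and a score of 438.9. The remaining pair of the leading 5 lay on scaffold GL894231.1.

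Scaffold GL894231.1 carried the only cluster within 10 kb that had more than 2 members. It held 11 predicted loci, 6 of them found in PFFs alone. The 6 loci lay within 21683 bases and had 2619 reads, or 15.1% of the reads of the PFF group. The locus from 20908 to 20962 had 1098 reads and a score of 560.8, the highest of the PFF group, and the locus from 15869 to 15927 had 895 reads and a score of 457.2. The loci from 10060 to 10121 and from 23070 to 23131 had 325 and 219 reads with scores of 166.9 and 112.7. The other two, from 20449 to 20509 and from 31684 to 31742, had 14 and 68 reads with scores of 1.8 and 1.4.

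The 5 loci of the scaffold that were no members did not share 1 pattern. From 17496 to 17556, 8237 reads were counted in PEBs and 1638 in ES-like cells, while PFFs had no prediction, and the locus from 11740 to 11798 had 206 and 49 reads in the same 2 libraries. The locus from 16615 to 16675 had 628 reads in PFFs, 35 in PEBs, 228 in ES-like cells and 8 in BL_1. In RPM its order was different, at 70.3 in BL_1, 35.8 in ES-like cells, 23.2 in PFFs and 2.21 in PEBs. The locus from 25700 to 25764 had 257 reads in PFFs, 22 in PEBs and 9 in ES-like cells, and the locus from 12261 to 12325 had 243 in PFFs and 8 in BL_2. Loci of PFFs alone and loci of ES-like cells and PEBs alone were thus interleaved. At the RPM of PFFs, the locus from 20908 to 20962 would have had 258 reads in ES-like cells and 643 in PEBs, or 600 and 805 with reads on predicted loci in the depth. With the mature totals of ES-like cells and PFFs exchanged, the values were 4665 and 2731.

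**Figure D3:**
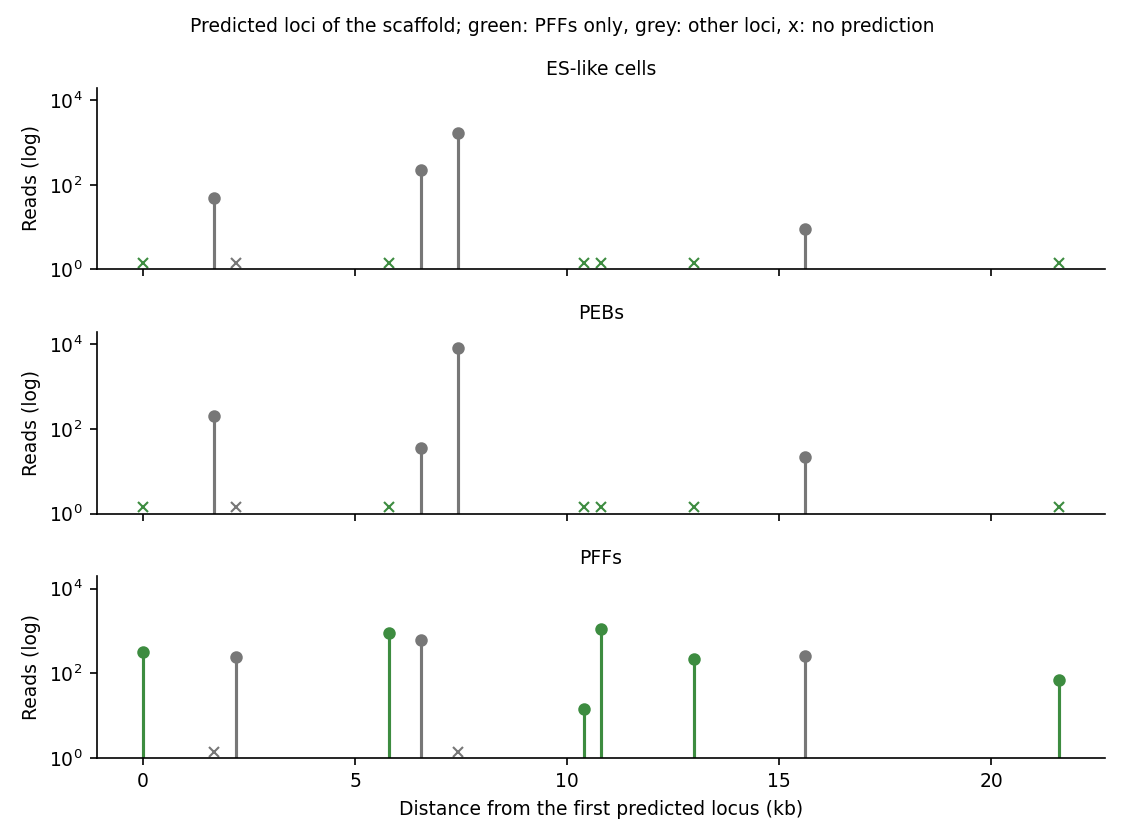
Reads (log scale) of the 11 predicted loci on scaffold GL894231.1 in ES-like cells, PEBs and PFFs, by distance from the first locus in kb. Green marks the 6 loci found in PFFs alone, grey the other 5, and a cross the lack of a prediction, as for the locus with 1638 reads in ES-like cells and 8237 in PEBs that PFFs lack.

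Scores separated the loci with many reads into distinct sets. Of the 42 members with at least 100 reads, 25 had scores from 0 to 2.6 and 17 had scores from 68.7 to 592.5, with no member between. In ES-like cells 3 of 5 such loci had a high score, in PEBs 6 of 15 and in PFFs 8 of 22, against 35 of 59, 26 of 57 and 22 of 39 of the other loci with as many reads. The same gap was seen in the other loci of each library with at least 100 reads, where the highest low score was 2.8 and the lowest high score was 52.5 in ES-like cells. A score of 10 or more was reached by 5 members of ES-like cells (8.77%, against 24.5% of all loci predicted there), 6 of PEBs (8.7%, against 19.9%) and 18 of PFFs (11.3%, against 17.2%). Among these 29 loci the score was 0.44 to 0.62 times the number of reads. Median scores were low and close to each other, at 2.4 in PFFs and in ES-like cells and 1.9 in PEBs. Scores of 0 occurred at 3 members of ES-like cells, 4 of PEBs and 8 of PFFs, against 8 of 241, 6 of 251 and 11 of 314 loci predicted in these libraries. Among them, the locus on scaffold GL893011.1 from 56419 to 56470, chosen after its values were seen, had 774 reads in PFFs. Reads, scores and the rule come from the same library, so these shares describe the groups and support nothing about them.

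**Figure D4:**
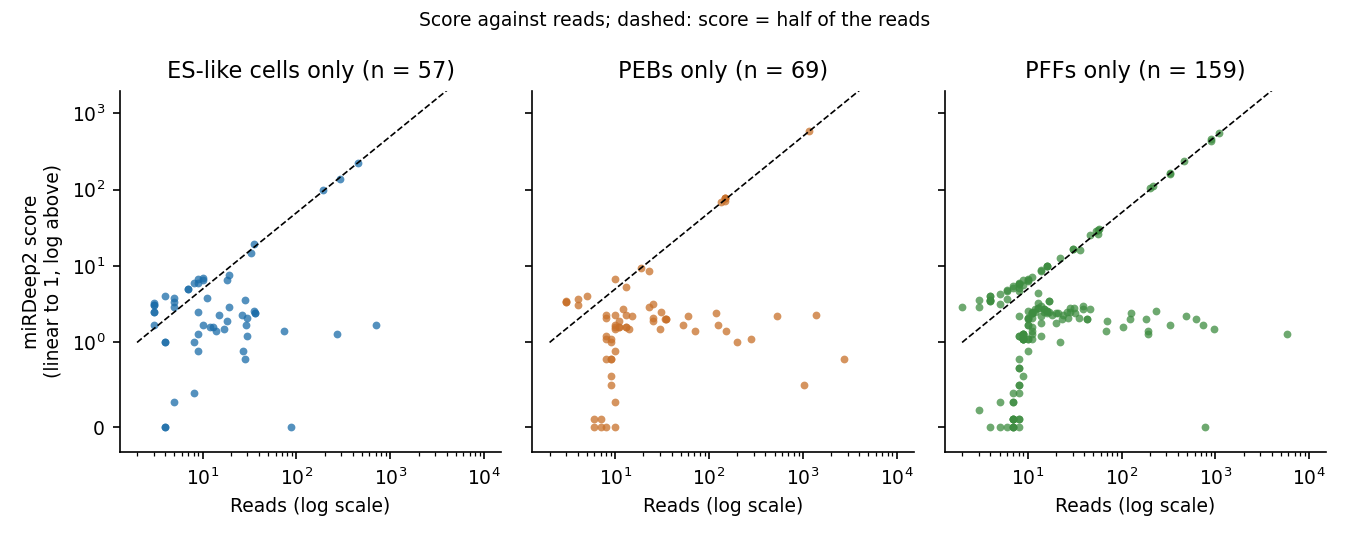
miRDeep2 score (linear up to 1, log above) against reads (log) for the loci of each group, 1 point per locus, with a dashed line where the score is 0.5 times the reads. High scores lie along the line, at 0.44 to 0.62 per read, while loci with up to 5793 reads lie at scores of 2.6 or less.

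Some members had equal counts. In PEBs, 3 hairpins of 63 bases on chromosome 14, from 7758797 to 7758859, 7955516 to 7955578 and 8246323 to 8246385, each had 149 reads and a score of 77.7, with 197 and 291 kb between their starts. A hairpin of 61 bases on chromosome 16 from 11040824 to 11040884 also had 149 reads, with a score of 71.4. In PFFs, the locus on chromosome 1 from 288048540 to 288048608 and that from 288252460 to 288252528, 204 kb apart, each had 192 reads in hairpins of 69 bases, with scores of 1.3 and 1.4. A locus of 103 bases on the X chromosome from 14172602 to 14172704 had the same 325 reads as the scaffold locus from 10060 to 10121, and a score of 163.2. Of the members with at least 10 reads, 5 of 47 in PEBs and 14 of 98 in PFFs shared the reads, the score and the length with another member, and 0 of 32 did in ES-like cells. With no minimum of reads, the counts were 9 of 69 in PEBs, 21 of 159 in PFFs and 10 of 57 in ES-like cells, so the lack among members of ES-like cells held only from 10 reads on. Other loci of ES-like cells did agree, as on chromosome 1 from 185903614 to 185903673 and from 186021705 to 186021764, with 29 reads and a score of 15.8 each. The share of all loci of a library that agreed in this way was not counted, so the counts of members have no background. Whether the same reads were counted at such loci was not tested. With each number of reads of 10 or more entered once, the PFF group came to 111 loci, the PEB group to 50 and the ES-like group to 49.

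Apart from the scaffold, members rarely lay side by side. Within 10 kb, clusters of the same group held 2 loci of ES-like cells, 0 of PEBs and 12 of PFFs, and 20 of the 285 members (7.02%) lay within 10 kb of any predicted locus, against 8.43% of all 783 loci. Each cluster outside the scaffold was a pair of overlapping hairpins. In ES-like cells, the pair on chromosome 1 from 126334543 to 126334620 and from 126334597 to 126334662 had 30 and 35 reads with scores of 1.2 and 19.6. In PFFs, the pair on chromosome 2 from 81464822 to 81464879 and from 81464854 to 81464916 had 742 and 615 reads with scores of 1.7 and 2. On chromosome 12, the pair from 49595469 to 49595526 and from 49595502 to 49595589 had 15 reads each, and on chromosome 3 the pair from 17761057 to 17761145 and from 17761121 to 17761191 had 10 and 11. A pair chosen after its values were seen lay on chromosome 7, where a PEB locus from 17852207 to 17852264 with 25 reads shared 25 bases with a PFF locus from 17852240 to 17852287 with 10 reads. It was the only place where members of different groups overlapped. No member of ES-like cells lay within 10 kb of a locus of another library, whereas 3 of PEBs and 11 of PFFs did. The 11 included the 6 of scaffold GL894231.1. Within 10 kb of any predicted locus, those of the same group included, lay 2 of 57, 3 of 69 and 15 of 159 members. These counts are for ES-like cells, PEBs and PFFs in this order. Of all loci predicted in these libraries, 31 of 241, 35 of 251 and 33 of 314 lay within 10 kb of any predicted locus.

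The members were spread over the genome. PFF loci lay on each of the 18 autosomes and the X chromosome, PEB loci on all of these except chromosome 11, and loci of ES-like cells on 15 of the 19, with none on chromosomes 5, 10, 11 and 18. Chromosome 2 held 16 PFF loci (10.1%, against 9.45% of all predicted loci), and chromosomes 1 and 3 held 15 each (9.43%, against 8.3% and 5.62%). In PEBs chromosome 14 led with 8 loci (11.6%, against 5.49%), 3 of which were the hairpins of equal count, and in ES-like cells chromosome 1 with 8 (14%, against 8.3%). Unplaced scaffolds held 19 loci of PFFs (11.9%), 4 of PEBs (5.8%) and 3 of ES-like cells (5.26%), against 10.5% of all predicted loci. Of the 19, 6 were those of GL894231.1. The X chromosome held 4, 3 and 5 loci of ES-like cells, PEBs and PFFs, or 7.02%, 4.35% and 3.14%, against 6.64% of all loci. With counts this small, the groups were not ranked by chromosome.

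**Figure D5:**
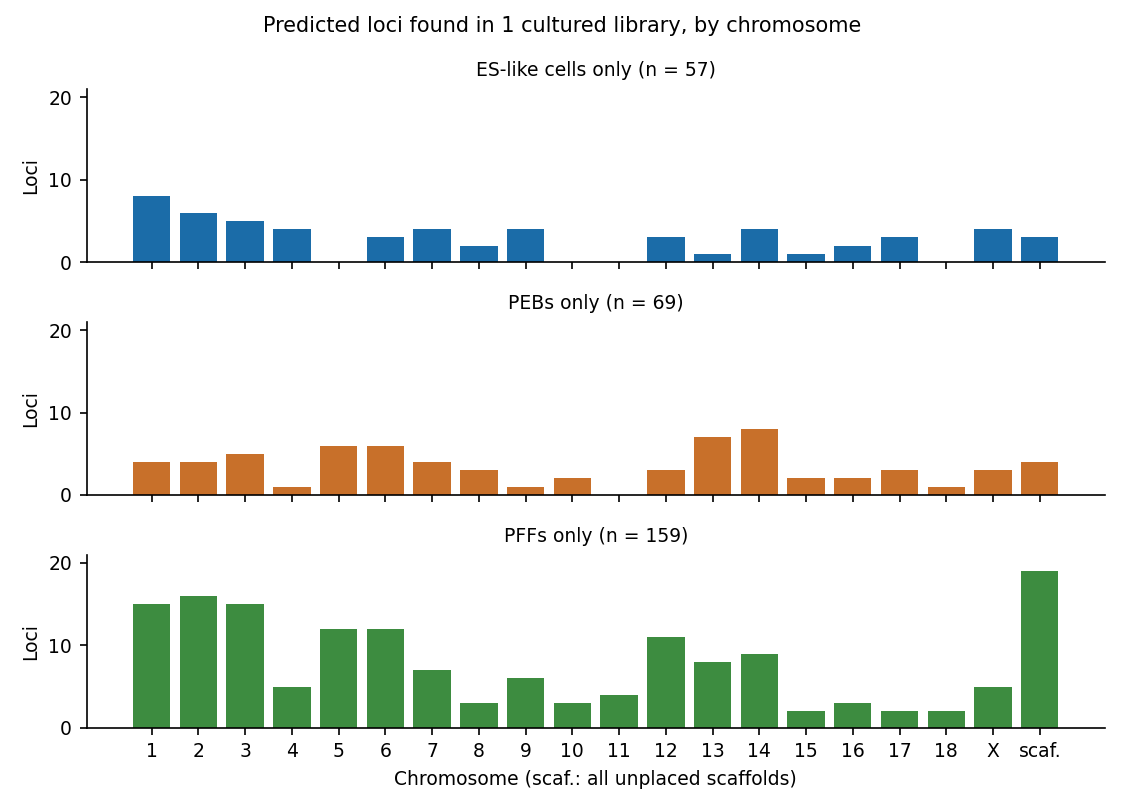
Number of predicted loci found in ES-like cells, PEBs or PFFs alone, by chromosome, with all unplaced scaffolds in the last bar. PFF loci number 16 on chromosome 2 and 19 on scaffolds, and loci of ES-like cells are lacking on chromosomes 5, 10, 11 and 18.

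Lengths differed little between the groups. The predicted precursors had a median of 62 bases in ES-like cells (range 40 to 107), 63 in PEBs (40 to 89) and 63 in PFFs (45 to 103), and the loci that were also predicted elsewhere had medians of 63, 62.5 and 63 bases. Short hairpins of 50 bases or less numbered 5 of 57 (8.77%), 8 of 69 (11.6%) and 5 of 159 (3.14%), against 4.56%, 5.58% and 2.55% of all loci predicted in the respective library. Of these 18, only the hairpins on chromosome 7 in ES-like cells and on chromosome 11 in PFFs had a score of 10 or more.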

How the data were processed

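Small RNA libraries of 5 pig samples were compared. The authors trimmed adapters with Cutadapt 1.10, aligned the reads with Bowtie 1.1.1 to Sscrofa10.2 and listed reported and predicted miRNAs with miRDeep2. The deposited tables hold raw read counts without normalization, 1 column per library, and the score that miRDeep2 gave each predicted locus. Most predictions of several libraries that overlapped were joined in 1 row with their outer ends as its position, while some overlapping loci kept their own rows. A cut-off on the score was not given in the sources used here. Where a cell held 2 counts, as for 3 members in PFFs, the larger was used with its score. 1 of 784 rows, on the mitochondrial genome, held text in place of a count and was left out. 5 columns of locus names were not used for values.

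The members and lists were chosen with earlier results of these data known. Loci were named by a rule: in each group the 5 with the most reads, the 3 with the highest scores, the 3 largest clusters within 10 kb, and members with equal counts of at least 100 reads. The PFF pair on chromosome 3 was named beyond this rule, so that all clusters were listed. RPM were computed over mature reads of reported miRNAs. Loci are not replicates, and no test was made. The gene table at hand is of another genome build and was not used. The steps that apply the member rule and find clusters were checked on simulated data, from which no result here comes. Python 3.11.15, pandas 2.3.3 and scipy 1.17.1 were used.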

Additional observations from a re-analysis of the deposited data

How the results depend on the processing

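No paired analysis was possible because each cultured cell type had 1 library and no result came from a test. Of 105 values under other settings, 75 stayed within 1.5 times the reported value, and 28 did not change. With at least 10 reads, 32 loci were left for ES-like cells and 98 for PFFs. With a score of at least 4, 41 PFF loci, 11 PEB loci and 15 loci of ES-like cells were left. The order of PEBs and ES-like cells by number of loci thus turned around with the score filter, while PFFs still had the most. Leaving out single libraries from the rule gave 159 to 183 loci for PFFs, 69 to 105 for PEBs (105 without ES-like cells) and 57 to 93 for ES-like cells (93 without PEBs). Leaving out the cultured libraries, the second scale below counting the largest number of reads once, exchanging totals and dropping the minimum of reads for equal loci were chosen after seeing the data. Merging overlapping members left 0 loci of ES-like cells and 6 of PFFs in clusters. At 50 kb, 20 PFF loci lay in clusters, and with any predicted locus as a partner 3 PEB loci did. In RPM with the columns as named, the median of PEBs was 0.475 times that of ES-like cells and 2.02 times that of PFFs. The median of PFFs was 0.235 times that of ES-like cells. When reads on predicted loci were added to the denominator, these ratios were 0.881, 1.61 and 0.547, the loci of ES-like cells per 1000000 reads fell to 3.84, and 51 PFF loci, against 32, reached 10 reads in ES-like cells and, equally, in both other cultured libraries. With the largest number of reads counted once, members held 0.0619% of the reads on predicted loci in ES-like cells and 0.406% in PEBs. With no minimum of reads, 10 loci of ES-like cells and 9 of PEBs shared reads, score and length with another. The cause of these shifts was not tested beyond the change of scale or filter itself. With the totals of ES-like cells and PFFs exchanged, loci per 1000000 mature reads were 2.11 for ES-like cells and 25 for PFFs. Then 23 loci of ES-like cells reached 10 reads in PEBs and 7 in PFFs, 63 PEB loci did so in ES-like cells and 26 in PFFs, and 158 PFF loci did so in ES-like cells and 148 in PEBs. The order of the median RPM was also reversed by the exchange. Scaled to PEB depth, the ES-like median was then 6.44 reads and the PFF median 27.4, against the PEB median of 13. With the columns as named, depth limits the comparison most for the PFF loci, whose median would give 2.59 reads in ES-like cells, or 6.01 on the second scale.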

Other observations

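With a distance of 50 kb, pairs of PFF loci appeared on chromosomes 12, 3 and 5 and on scaffold GL896296.2. On the scaffold, the locus from 4647 to 4705 had 26 reads and a score of 2.5, and the locus from 16394 to 16467, 11.7 kb further, had 56 reads and a score of 29.8. A hairpin of equal length (74 bases) and equal reads lay on chromosome 12 from 26413906 to 26413979, with a score of 26. In PFFs, the locus on chromosome 5 from 24730579 to 24730640 and that on scaffold JH118928.1 from 45791 to 45852 each had 30 reads, 62 bases and a score of 16.9. These loci were chosen after their values were seen.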
